A study of Rattus norvegicus with 12 samples.

Results

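The genes described here serve fatty acid oxidation in peroxisomes. They are Ehhadh, Hsd17b4, Scp2, Pex11a, Decr2, Ech1, Eci2, Crat, Abcd3 and Slc27a2, 10 genes in all, and were taken as every probe set of the array that the platform annotation gives to one of them alone. That rule found all 10 genes, of 14217 that a probe set measures alone, in 12 probe sets of the 31099 on the array, 2 each for Scp2 and Pex11a and 1 for each of the other 8 genes. A further probe set, given to Eci2 together with another gene, was left out. Liver RNA of 12 rats was measured on 1-colour Affymetrix arrays, 1 array per animal. Sprague Dawley rats reared germ-free, without microbes, gave 3 livers (animals 1, 3 and 4), which were set against those of 3 Sprague Dawley rats labelled normal and not germ-free (animals 6, 7 and 8), called conventional below. Livers of 3 Han Wistar rats with antibiotics in the drinking water (animals 13, 14 and 15) were compared with 3 livers of untreated rats of that strain (animals 1, 2 and 3). The antibiotics were streptomycin and penicillin, taken freely for 8 days. The labels give streptomycin at 4 mg/ml and penicillin at 2 mg/ml without settling whether the stock or the drinking water held these concentrations. They also give 30 mL of stock with 270 mL of water, 300 mL in all, so the dose depends on the reading. No sex, age, diet or time of collection comes with the labels, and strain goes with experiment, so neither can be told apart from the other. Nor can such conditions be told apart from germ-free state.

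Peroxisomes shorten very long-chain, branched and dicarboxylic fatty acids and the side chains of bile acid precursors, whereas mitochondria burn most ordinary fatty acids to completion. A fatty acid is activated to its acyl-CoA, carried across the peroxisomal membrane, and cut by rounds of oxidation, hydration, dehydrogenation and thiolysis. The shortened products leave as carnitine esters. In rodent liver many of these genes are classical targets of the nuclear receptor PPAR-alpha, which fatty acids activate and which makes peroxisomes multiply when drugs stimulate it. Crat, Ech1 and Eci2 products also work in mitochondria, and Pex11a is a gene of peroxisome division rather than an enzyme.

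Promoters of the members were compared because several members fell together in germ-free livers (values below). RefSeq starts in the rat build GRCr8 were found for 9 of the 10 genes, all but Ech1. The stretch of 250 bases before each start was searched on both strands for the DR1 repeat, the half-site AGGTCA repeated once in the same direction with any 1 base between, which PPAR-alpha binds with its partner RXR. No member promoter held it, and 17 of all 33469 promoters of that length did (0.0508%). With up to 2 mismatches in its 12 fixed letters, an allowance chosen after the files were seen, 2 of 9 member promoters matched, those of Crat and Slc27a2, against 3.15% of all promoters. The Crat match lay 223 to 211 bases before the start, and the Slc27a2 match 76 to 64 bases before it on the opposite strand. Such matches are letters in a window and not shown binding sites. The response elements known in rat Ehhadh lie farther upstream than this window. The 3 genes with the largest falls in germ-free livers (Pex11a, Crat and Ehhadh) and Slc27a2 are shown 5′ to 3′ in the direction of the gene, with the near matches in capitals.
Pex11a (chr1:143096492-143096741, minus strand): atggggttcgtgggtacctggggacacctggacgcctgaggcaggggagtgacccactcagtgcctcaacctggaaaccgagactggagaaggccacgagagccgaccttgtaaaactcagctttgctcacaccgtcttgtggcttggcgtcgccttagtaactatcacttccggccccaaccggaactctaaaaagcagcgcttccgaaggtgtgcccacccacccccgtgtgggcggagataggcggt
Crat (chr3:34087100-34087349, minus strand): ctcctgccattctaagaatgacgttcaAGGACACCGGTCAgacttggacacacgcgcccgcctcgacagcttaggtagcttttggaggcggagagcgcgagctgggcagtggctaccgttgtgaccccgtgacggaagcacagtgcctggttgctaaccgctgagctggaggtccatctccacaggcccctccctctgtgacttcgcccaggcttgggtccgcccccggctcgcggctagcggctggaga
Ehhadh (chr11:92746159-92746408, plus strand): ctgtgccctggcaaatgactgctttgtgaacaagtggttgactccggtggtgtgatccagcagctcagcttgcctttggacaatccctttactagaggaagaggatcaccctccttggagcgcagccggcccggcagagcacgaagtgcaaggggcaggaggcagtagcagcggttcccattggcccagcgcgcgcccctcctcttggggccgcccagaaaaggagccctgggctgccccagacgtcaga
Slc27a2 (chr3:134257851-134258100, plus strand): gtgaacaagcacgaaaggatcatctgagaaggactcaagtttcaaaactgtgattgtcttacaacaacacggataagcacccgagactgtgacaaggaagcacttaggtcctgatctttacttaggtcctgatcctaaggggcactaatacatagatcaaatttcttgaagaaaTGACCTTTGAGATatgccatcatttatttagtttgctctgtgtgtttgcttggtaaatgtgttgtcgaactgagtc
Of these, Crat combined a near match with a large fall, Slc27a2 had a near match without a call, and Pex11a and Ehhadh fell without one.

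Signals are the deposited MAS5 values, a linear brightness scaled to the same trimmed mean on every array. The p-values compare differences with the variation among animals of the same group, by limma fitted to log2(signal + 16) of 15523 probe sets with the 4 group means, adjusted over all of them. Fold changes on that scale understate the change of dim probe sets. Within groups, array pairs had correlations of 0.974 to 0.985 over probe sets, and the number of animals limits the precision. All 12 member probe sets passed the filter on dim signals, with means over the 12 arrays of 94.4 or more, where the filter stood at 19.7.

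In germ-free livers 8 of the 12 probe sets fell, 0 rose and 4 did not pass, where 5.39% of all probe sets tested were called lower and 6.86% higher (12.2% in all). By gene, 7 of 10 fell: Pex11a, Crat, Ehhadh, Ech1, Decr2, Eci2 and Hsd17b4. The members' median log2 change was -0.74, against 0.05 over all probe sets tested, and their values ran from -1.96 to 0.28. In 9 of 12 probe sets every germ-free animal lay below every conventional one (12.1% of all probe sets), and in the other 3 every germ-free animal lay above (16.9%). The 3 were Slc27a2 and both probe sets of Scp2. In bulk tissue fewer cells of a type and less RNA per cell cannot be told apart.

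**Figure D1:**
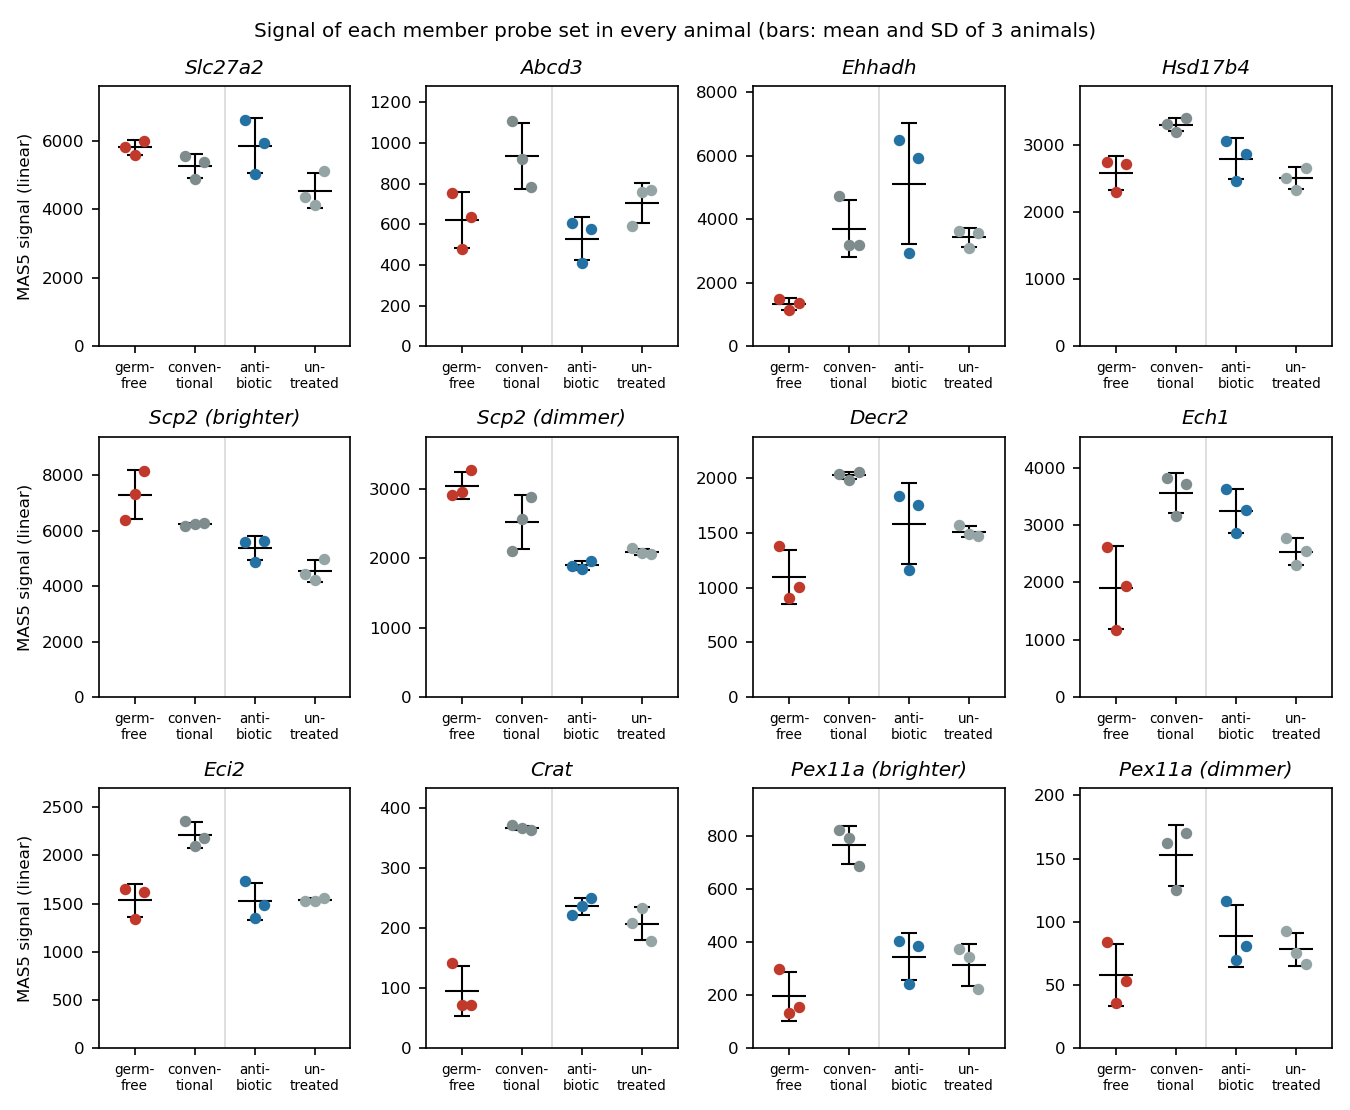
Linear MAS5 signal of the 12 member probe sets in every animal, 1 panel each with its own axis from 0, with points for animals and bars for the mean and SD of 3 animals. Germ-free points lie below all conventional points in 9 panels and above them in the panels of Slc27a2 and Scp2.

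Neither gene of fatty acid entry passed the test. Slc27a2 encodes a very long-chain acyl-CoA synthetase that also takes part in fatty acid uptake. Its signal was 5829, 5576 and 6003.5 in germ-free animals 1, 3 and 4, against 5540.4, 4877.5 and 5385 in conventional animals 6, 7 and 8. The groups did not overlap, but the difference did not pass (log2 0.14 ± 0.11, adjusted p = 0.437 by limma, 95% interval -0.09 to 0.38). Over all alternatives this log2 value ran from 0.01 to 0.185 and passed in 0. Abcd3 encodes the membrane transporter PMP70, which brings acyl-CoAs into the peroxisome. It had 753, 479.7 and 635 in germ-free livers, against 1107, 919 and 784 in conventional livers. All germ-free animals were below all conventional ones, by little between germ-free animal 1 and conventional animal 8. The value of -0.59 ± 0.19 did not pass (adjusted p = 0.0548), although it passed in 5 of 24 alternatives, namely median centring (0.0278), array weights (0.0263), and without germ-free animal 1 (0.0273), conventional animal 8 (0.0434) or antibiotic animal 14 (0.0393).

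Of the enzymes of the core cycle, Ehhadh fell most. It encodes the L-bifunctional protein, which hydrates and dehydrogenates straight-chain acyl-CoAs. The signal was 1486, 1135.5 and 1374 in germ-free livers, against 4741, 3180.3 and 3179 in conventional livers. Every germ-free animal stood far below the lowest conventional value, and conventional animal 6 was high within its group. The means were 1332 ± 179 in germ-free livers, against 3700.1 ± 901 in conventional ones (SD, n = 3 each), a log2 change of -1.45 ± 0.24 (adjusted p = 0.00167 by limma). Hsd17b4 encodes the D-bifunctional protein, which acts at the same steps on branched-chain and bile acid intermediates. It had 2755, 2301 and 2713 in germ-free livers, against 3313, 3202 and 3408 in conventional livers. The groups did not overlap, and the change was small (-0.36 ± 0.10, adjusted p = 0.0386). Its call was lost in 11 of 24 alternatives, with adjusted p from 0.0521 to 0.228. Leaving out 1 animal was enough in 7 cases, which were germ-free animals 3 (0.168) and 4 (0.0578), conventional animals 6 (0.0758), 7 (0.0717) and 8 (0.0938), untreated animal 1 (0.0546) and antibiotic animal 15 (0.0521).

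Scp2 did not follow the bifunctional enzymes. The gene encodes both a peroxisomal thiolase, which makes the last cut for branched chains, and a sterol carrier protein. Its brighter probe set had 6390.1, 7329.8 and 8144 in germ-free livers, against 6159, 6230.2 and 6287 in conventional livers, where the 3 animals were nearly equal. The dimmer probe set had 2916, 2956 and 3275 in germ-free livers, against 2109, 2563 and 2886 in conventional livers. Both probe sets had all germ-free animals above all conventional ones, with log2 values of 0.22 ± 0.10 and 0.28 ± 0.11, and neither passed (adjusted p = 0.179 and 0.0989 by limma). The dimmer one passed with quantile normalization (0.0478) and without conventional animal 8 (0.0333), and over all alternatives its log2 value ran from 0.16 to 0.39. The value of the brighter one ran from 0.01 to 0.31 and passed in 0 alternatives. It was lowest with quantile normalization, so the rise of this probe set depended on the normalization.

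The 3 auxiliary enzymes, which prepare the double bonds of unsaturated fatty acids for the cycle, fell together. Decr2, the peroxisomal dienoyl-CoA reductase, had 1376, 901 and 1009 in germ-free livers, against 2036, 1984 and 2051 in conventional livers (a log2 change of -0.90 ± 0.17, adjusted p = 0.00335 by limma). Ech1, a dienoyl-CoA isomerase, had 2617, 1177 and 1936.5 in germ-free livers, against 3809.6, 3159 and 3709.8 in conventional livers (-0.96 ± 0.21, adjusted p = 0.00856). In both, germ-free animal 1 was highest and animal 3 lowest of the germ-free group. Eci2, an enoyl-CoA isomerase, had 1652.5, 1341 and 1618 in germ-free livers, against 2359, 2101 and 2176 in conventional livers (-0.52 ± 0.11, adjusted p = 0.00681). No group pair overlapped in any of the 3 genes.

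The gene of product export and that of peroxisome division changed most. Crat encodes carnitine acetyltransferase, which turns acetyl-CoA into its carnitine ester. Its signal was 143, 71.4 and 72.4 in germ-free livers, against 371, 366 and 364 in conventional livers, where the animals were almost identical. The means were 95.5 ± 40.9 in germ-free livers, against 367 ± 3.62 in conventional ones (SD, n = 3 each), a log2 change of -1.84 ± 0.19 (adjusted p = 5.26e-05 by limma). Pex11a encodes a peroxin of the membrane that elongates and divides peroxisomes. Its brighter probe set had 300.2, 133 and 154.5 in germ-free livers, against 825, 792 and 687 in conventional livers (-1.96 ± 0.26, adjusted p = 0.000371). The dimmer probe set had 84.2, 36.2 and 53 in germ-free livers, against 162, 125 and 170 in conventional livers (-1.23 ± 0.22, adjusted p = 0.00278). Both probe sets fell, with the smaller log2 change in the dimmer one. The offset of 16 affects dim signals more. Without an offset, the conventional mean was 3.92 times the germ-free mean in the brighter probe set and 2.64 times in the dimmer one. With an offset of 1 the dimmer probe set changed by -1.45 and with 64 by -0.84.

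**Figure D2:**
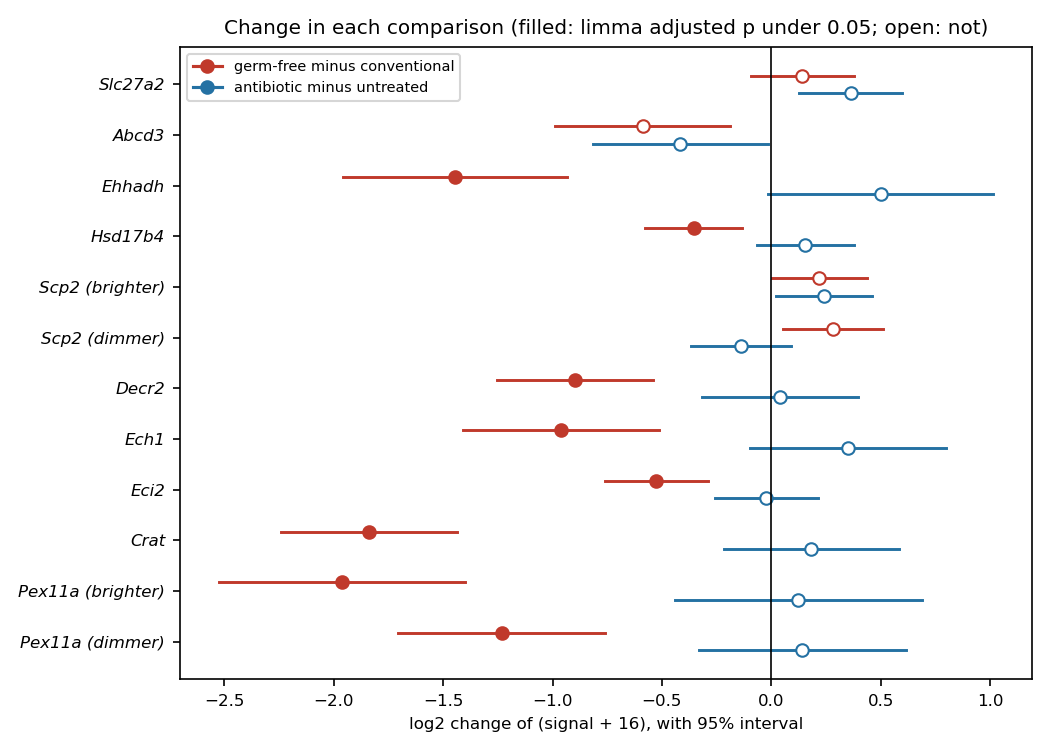
Log2 change of (signal + 16) with its 95% interval for the 12 probe sets, germ-free minus conventional (red) and antibiotic minus untreated (blue), with filled points for an adjusted p under 0.05. In the germ-free comparison 8 points are filled, all below 0, and in the antibiotic comparison 0 are.

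In antibiotic-treated livers 0 of the 12 probe sets passed limma's test, where 0.0193% of all probe sets did (3 of 15523). At an unadjusted p under 0.05 there were 3 of 12 members, against 9.97% of all probe sets. The 3 were Slc27a2, the brighter Scp2 probe set and Abcd3. The members' median log2 value was 0.15, against 0.01 over all probe sets, with 9 values above 0 (51.5% of all probe sets) and 3 below. Of these, the values of Hsd17b4 and Decr2 and of the brighter Scp2 probe set lay just below 0 after quantile normalization, and that of Decr2 also after median centring. The groups did not overlap in 2 probe sets, Ech1 with antibiotic-treated livers higher (9.57% of all probe sets) and the dimmer Scp2 probe set with them lower (8.78%).

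Slc27a2 had 6599, 5015 and 5945 in antibiotic animals 13, 14 and 15, against 4368.5, 4137 and 5114 in untreated animals 1, 2 and 3 (log2 0.36 ± 0.11, adjusted p = 0.269 by limma). Abcd3 had 606, 407 and 575 in antibiotic-treated livers, against 593, 757 and 768 in untreated livers (-0.42 ± 0.19, adjusted p = 0.484). These transporter and synthetase genes thus had values of opposite sign, and both pairs of groups overlapped. Ehhadh had 6492.5, 2953 and 5918 in antibiotic-treated livers, against 3624, 3096 and 3557 in untreated livers (0.50 ± 0.24, adjusted p = 0.515). Antibiotic animals 13 and 15 lay far above all untreated animals and animal 14 below all of them. Without animal 14 the Ehhadh value was 0.86, also short of the threshold (adjusted p = 0.156), and over all alternatives it ran from 0.27 to 0.86.

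Hsd17b4 had 3064, 2460.4 and 2865 in antibiotic-treated livers, against 2517, 2333 and 2660.5 in untreated livers (0.15 ± 0.10 on the log2 scale). The brighter Scp2 probe set had 5609, 4884 and 5644 in antibiotic-treated livers, against 4433, 4217.5 and 4989 in untreated livers (0.24 ± 0.10), and the dimmer one 1892, 1843 and 1967.5, against 2144, 2085 and 2059 (-0.14 ± 0.11). The probe sets of Scp2 thus went opposite ways in the antibiotic comparison. Decr2 had 1831, 1164 and 1756 in antibiotic-treated livers, against 1569.5, 1491 and 1470.4 in untreated livers (0.04 ± 0.17). Ech1 had 3626.5, 2859 and 3254 in antibiotic-treated livers, against 2772, 2298 and 2544 in untreated livers (0.35 ± 0.21). Ech1 was the one auxiliary enzyme whose groups stood apart, and Decr2 was wide among antibiotic animals and narrow among untreated ones.

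Eci2 had 1734.5, 1355 and 1484 in antibiotic-treated livers, against 1527, 1533 and 1562 in untreated livers (-0.02 ± 0.11). Crat had 222, 237 and 249.9 in antibiotic-treated livers, against 209, 234 and 179 in untreated livers (0.18 ± 0.19). The brighter Pex11a probe set had 406, 243 and 385.5 in antibiotic-treated livers, against 373, 345 and 225 in untreated livers (0.12 ± 0.26). In each of these the groups overlapped. The 95% interval of Crat ran from -0.22 to 0.58 and that of the brighter Pex11a probe set from -0.44 to 0.69, so falls of the germ-free size lie outside both. For the dimmer Pex11a probe set, with 116, 69.7 and 80.9 in antibiotic-treated livers, against 92.4, 75.4 and 66.8 in untreated livers, it ran from -0.33 to 0.61.

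The difference between the comparisons, germ-free minus conventional less antibiotic minus untreated, was tested in the same fit. In 6 of 12 probe sets the germ-free change was called lower and in 0 higher, where 2.56% of all probe sets were called lower and 2.47% higher. These belong to 5 genes. The difference was -2.09 ± 0.37 for the brighter and -1.37 ± 0.31 for the dimmer Pex11a probe set (adjusted p = 0.00577 and 0.023 by limma), -2.02 ± 0.26 for Crat (adjusted p = 0.000978) and -1.95 ± 0.34 for Ehhadh (adjusted p = 0.00532). It was -1.31 ± 0.30 for Ech1 (adjusted p = 0.022) and -0.94 ± 0.23 for Decr2 (adjusted p = 0.036). Hsd17b4 (-0.51 ± 0.15, adjusted p = 0.0615) and Eci2 (-0.50 ± 0.15, adjusted p = 0.0807) fell in germ-free livers but did not pass this test. The count was 3 without untreated animal 2 or antibiotic animal 13, where the Ech1 (adjusted p = 0.0590 and 0.0535), dimmer Pex11a (0.0553 and 0.0547) and Decr2 calls were lost; the dimmer Pex11a call was also lost without germ-free animal 3 (0.0535) or untreated animal 3 (0.0548). With the actin ratio, a measure of RNA quality described below, as a covariate, 2 calls remained (Crat and Ehhadh), and the brighter Pex11a (-1.62 ± 0.40, adjusted p = 0.0603), dimmer Pex11a (-1.11 ± 0.37, 0.147), Ech1 (-0.96 ± 0.33, 0.161) and Decr2 (-0.67 ± 0.26, 0.221) did not pass. The Decr2 call was lost in 14 of 23 alternatives, with adjusted p from 0.0531 to 0.221, and held on leaving out 1 animal only for germ-free animal 1 and antibiotic animal 14.

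In the germ-free and antibiotic groups 1 animal was the lowest in most members. Germ-free animal 3 had the lowest signal of its group in 10 of 12 probe sets, where it was the lowest in 30.0% of all probe sets tested. The other 2 were the Scp2 probe sets, lowest in germ-free animal 1. Antibiotic animal 14 had the lowest signal of its group in 11 of 12, against 30.3% of all probe sets. The exception was Crat, lowest in antibiotic animal 13. No control animal was the lowest in as many. Conventional animals 6, 7 and 8 were the lowest in 2, 6 and 4 probe sets (32.3%, 27.8% and 39.9% of all probe sets). Untreated animals 1, 2 and 3 were the lowest in 2, 5 and 5 (28.4%, 32.4% and 39.2%). As medians over the 12 probe sets, the log2 deviation from the conventional mean was -0.43, -1.04 and -0.70 in germ-free animals 1, 3 and 4, and from the untreated mean 0.30, -0.16 and 0.24 in antibiotic animals 13, 14 and 15. Over all probe sets these medians stayed between 0.00 and 0.06. The arrays were scaled to the same trimmed mean, which does not fix their medians. The array median of log2(signal + 16) was 5.18 to 5.25 in germ-free and 5.06 to 5.14 in conventional livers. It was 5.18 in all antibiotic-treated livers and 5.10 to 5.17 in untreated ones.

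**Figure D3:**
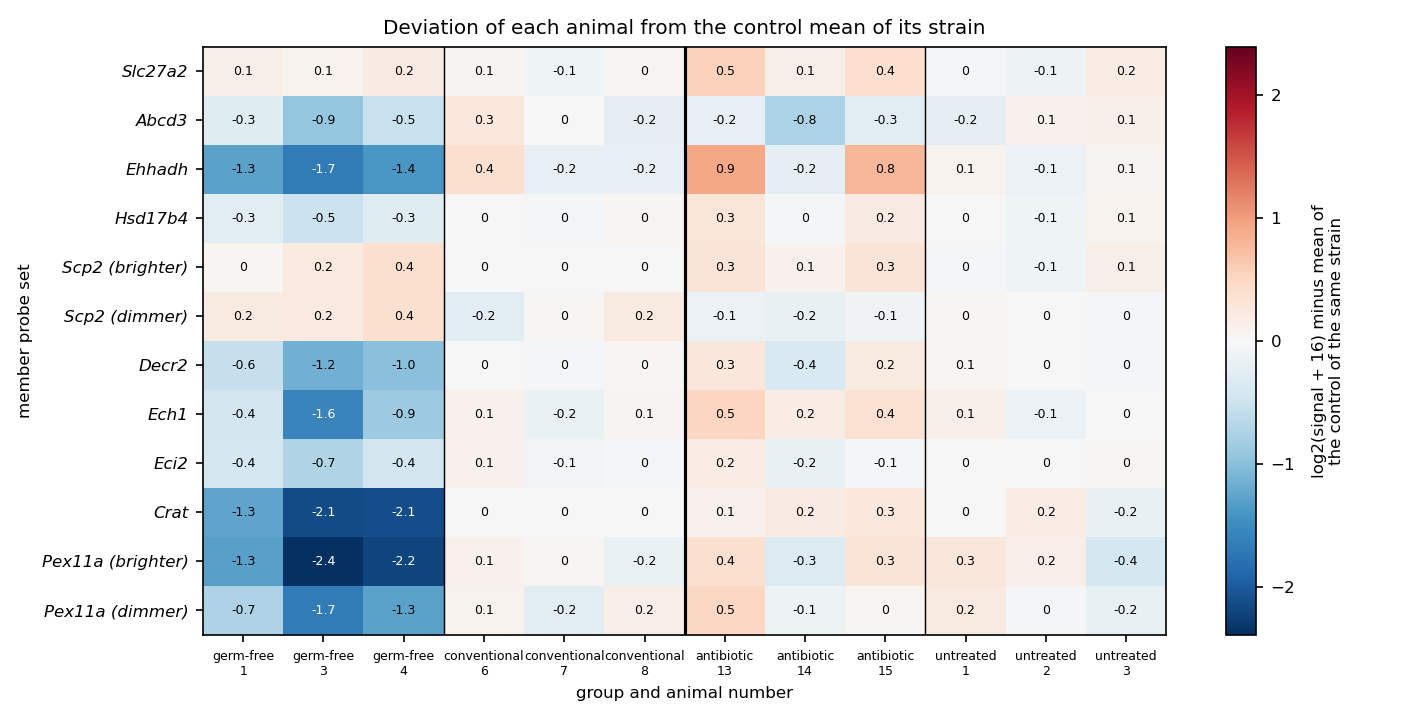
Log2(signal + 16) of each of the 12 probe sets in each of the 12 animals, minus the mean of the control group of its strain, in colour and as rounded numbers. Germ-free animal 3 has the lowest value of its group in 10 of 12 rows, and antibiotic animal 14 lies below animals 13 and 15 in 11 of 12 rows.

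Over the 4 groups, mean levels ran from high to low as conventional, antibiotic, untreated and germ-free in 5 probe sets: Crat, Decr2, Ech1 and both of Pex11a. In all of these other than Ech1 the conventional animals stood above every other animal, and antibiotic and untreated animals overlapped. Germ-free animals lay below all others for Crat, and for Decr2 below all but antibiotic animal 14, while for Pex11a and Ech1 they overlapped with untreated animals. Ehhadh had the order antibiotic, conventional, untreated and germ-free, with overlaps between the first 3 and germ-free animals below them all. Both probe sets of Scp2 were highest in germ-free livers, apart from the conventional animals that came next. These orders cross strains and experiments and were not tested. The actin ratio also stood apart between the experiments. Its means were 4.39 in germ-free and 5.37 in conventional livers, against 2.73 in antibiotic-treated and 2.55 in untreated livers.

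Genes with a pattern like Ehhadh were sought over the 12 arrays among 9299 other genes, by the mean absolute difference of log2 deviations from the control mean of the strain. The 5 nearest outside the members were Acad11, Plin2, Acot2, Cyp2j4 and Qpct, at mean differences of 0.15, 0.20, 0.21, 0.21 and 0.21, against a median of 0.63 over all genes. Acad11, an acyl-CoA dehydrogenase, had 724, 615 and 773 in germ-free livers, against 1954, 1621 and 1771 in conventional livers, and 2212, 1430 and 1770.3 in antibiotic-treated livers, against 1346, 1228 and 1297.5 in untreated livers. Being chosen for its likeness over these arrays, it shares the low value of antibiotic animal 14 by that choice. Plin2 encodes a lipid droplet coat protein, and its brightest probe set changed by -1.24 ± 0.12 in germ-free livers while its other one had a log2 value of 0.22 (adjusted p = 0.448). Qpct was dim, with germ-free signals of 4.4, 8.5 and 6.1. Among members Ech1 came nearest, at rank 18 of 9299, then Decr2 at 48, Pex11a at 61 and Crat at 71. Abcd3, Slc27a2 and Scp2 stood at ranks 1056, 1974 and 4195. Genes sharing an array share its scaling, and no test was made of these likenesses.

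Other genes of peroxisomal oxidation showed changes in both directions in germ-free livers. Of 18 listed genes 13 were tested, with 7 lower, 2 higher and 4 that did not pass (median log2 change -0.63, against 0.05 over all probe sets, of which 5.39% were lower and 6.86% higher). Acot4, an acyl-CoA thioesterase, had 405, 209 and 294.5 in germ-free livers, against 1562, 989 and 934 in conventional livers (-1.89 ± 0.22, adjusted p = 0.00014 by limma). Nudt7, a hydrolase that degrades CoA in peroxisomes, had 304, 229 and 327 in germ-free livers, against 788, 735 and 648.5 in conventional livers (-1.30 ± 0.17). Acot3, another thioesterase, changed by -1.03 ± 0.19. Thioesterase genes of this family are almost alike in sequence, and 1 probe set can detect several. The others that fell were Hacl1 (-0.83 ± 0.23), Crot, a carnitine octanoyltransferase (-0.83 ± 0.23), Acot8 (-0.73 ± 0.14) and Nudt12 (-0.63 ± 0.16). For Crot this is the brighter probe set, and its other one did not pass (-0.74, adjusted p = 0.0965 by limma). Those that rose were the oxidases Acox2, which acts on bile acid precursors, and Acox3. Acox2 had 821, 866 and 917 in germ-free livers, against 467, 617 and 613 in conventional livers (0.61 ± 0.14, adjusted p = 0.0109), and Acox3 changed by 0.68 ± 0.15 (adjusted p = 0.00999). Acaa1a and Acaa1b were not analysed here.

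Genes of peroxisome biogenesis and division were called about as often as probe sets at large. Among 15 tested, 2 were lower, 0 higher and 13 without a call (median -0.03), where 12.2% of all probe sets were called either way. Pex19, a chaperone of membrane proteins, changed by -0.47 ± 0.12 (adjusted p = 0.0209 by limma), and Pex5, the import receptor, by -0.41 ± 0.11 from its brighter probe set, with a value of 0.19 from its other one. Other peroxisomal proteins went both ways, with 4 of 20 lower, 3 higher and 13 that did not pass (median -0.19), where 5.39% of all probe sets were lower and 6.86% higher. Pxmp4, a membrane protein, had 417, 345 and 364 in germ-free livers, against 1480, 864 and 1509.9 in conventional livers (-1.69 ± 0.18, adjusted p = 5.98e-05). Mlycd, malonyl-CoA decarboxylase, changed by -0.75 ± 0.12 and the protease Lonp2 by -0.46 ± 0.11. Hao2, a hydroxy acid oxidase, had 3741, 4434 and 5081 in germ-free livers, against 2314, 2410 and 2658 in conventional livers (0.83 ± 0.15, adjusted p = 0.00276), and Gstk1 (0.58 ± 0.11) and Dao, the D-amino acid oxidase (0.68 ± 0.18), rose as well. Cat, the peroxisomal catalase, did not pass (0.28 ± 0.10, adjusted p = 0.0748).

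Of 18 genes of carnitine transport and mitochondrial beta-oxidation, 9 were lower in germ-free livers, 0 higher and 9 without a call (median -0.30). Over all probe sets 5.39% were lower and 6.86% higher. The carnitine carrier Slc22a5 changed by -1.57 ± 0.19, Cpt2 by -1.15 ± 0.16, the exchanger Slc25a20 by -0.94 ± 0.12 and Cpt1a, the entry step, by -0.74 ± 0.13. Of 21 genes on the list of PPAR-alpha, its partners and other targets, 7 fell, 1 rose and 13 did not pass (median -0.15), beside the same shares. Vnn1, a pantetheinase, had 243, 63.8 and 49.4 in germ-free livers, against 1025, 1065 and 786 in conventional livers (-3.13 ± 0.38, adjusted p = 0.000184 by limma), and the liver transcription factor gene Creb3l3 changed by -0.70 ± 0.11. The receptor gene Ppara was dim, with 40.3, 25.1 and 39.3 in germ-free livers, against 20.9, 3.2 and 17.3 in conventional livers (0.81 ± 0.26, adjusted p = 0.0585), and Rxra, its partner, rose, although its groups overlapped (0.67 ± 0.19, adjusted p = 0.0337). In antibiotic-treated livers 0 genes of any of these 5 lists passed limma's test, with list medians from 0.03 to 0.18. Cpt1a had a value of 0.53 ± 0.13 there (adjusted p = 0.173), with 2458, 2679 and 2321 in antibiotic-treated livers, against 2000.1, 1774 and 1429.8 in untreated livers. The lists were made with earlier results of these data known.

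**Figure D4:**
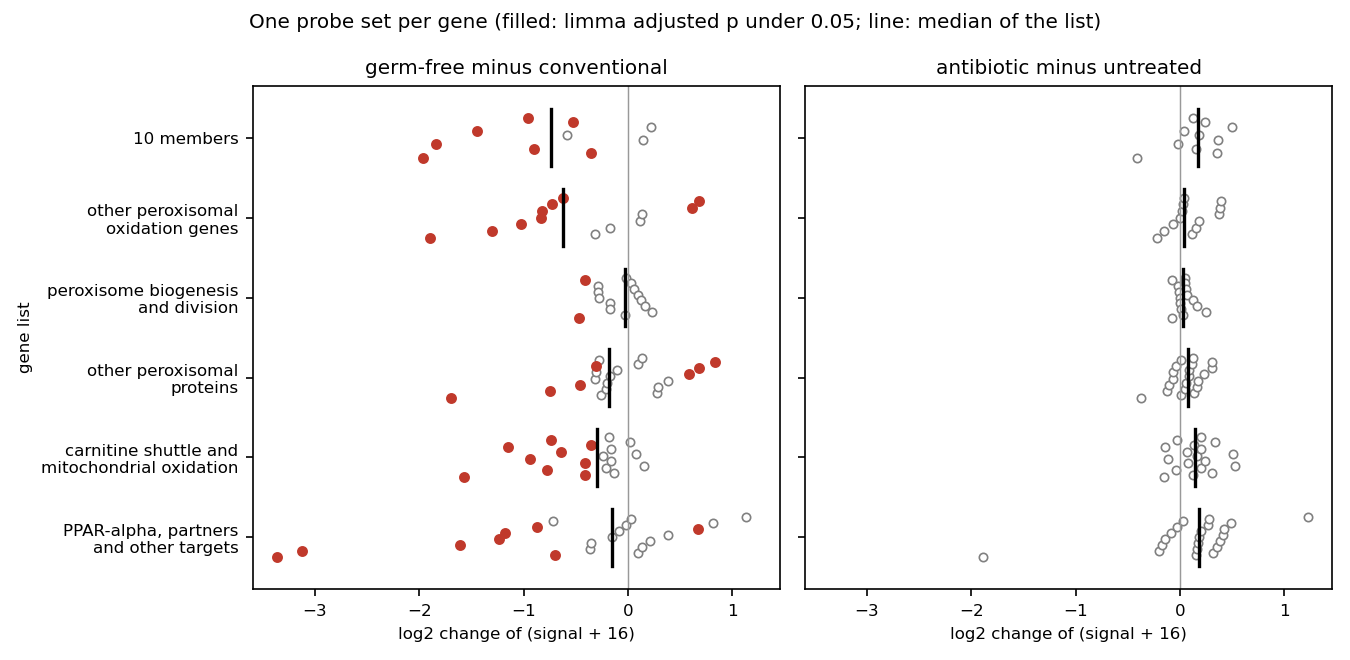
Log2 change of (signal + 16), 1 probe set per gene, for the 10 members and 5 other lists, germ-free minus conventional on the left and antibiotic minus untreated on the right, with filled points for an adjusted p under 0.05 and a line at the median. Members lie lowest by median (-0.74) in the germ-free panel, where the biogenesis list sits near 0, and no point is filled in the antibiotic panel.

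Markers of other cell types and RNA quality were read beside these results. Of 5 tested hepatocyte markers 0 passed in either comparison. Their summed signal did not overlap in the germ-free comparison, at 39450 to 44164 in germ-free and 35514 to 39014 in conventional livers. Of 7 endothelial markers 6 rose in germ-free livers (median log2 change 0.90), with a summed signal of 1521 to 2012 in germ-free and 819 to 1006 in conventional livers. Of 8 macrophage markers 1 fell there, Clec4f (-0.64 ± 0.17), with sums of 1713 to 2253 in germ-free and 2117 to 2922 in conventional livers. In antibiotic-treated livers 0 of these passed. Hepatocyte sums there did not overlap, at 29163 to 36871 in antibiotic-treated and 21625 to 26489 in untreated livers (median log2 value 0.42, where the members' was 0.15), with macrophage sums of 1929 to 2876 in antibiotic-treated and 1383 to 1977 in untreated livers. Stellate cell (10 tested), bile duct (3) and lymphocyte (1) markers had 0 calls. For RNA quality, the actin control probe sets gave a 3′ over 5′ ratio, higher in degraded RNA, of 4.39 ± 0.762 in the germ-free group, against 5.37 ± 0.839 in the conventional group (SD, n = 3 each). By a two-sided exact permutation test p was 0.2, and 0.1 is the least it can be. It was 2.73 ± 0.131 in antibiotic-treated and 2.55 ± 0.123 in untreated livers (exact permutation p = 0.2). With that ratio as a covariate 5 of the 8 germ-free calls remained, those of Pex11a, Crat, Ehhadh and Decr2, and 3 did not pass. Their log2 values with the covariate were -0.70 ± 0.23 for Ech1 (adjusted p = 0.107 by limma), -0.47 ± 0.14 for Eci2 (0.0638) and -0.29 ± 0.13 for Hsd17b4 (0.228), all below 0 as without it. The part of the markers in the results was not tested.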

How the data were processed

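Liver RNA of 12 rats (4 groups of 3) was measured, and the authors deposited 1 signal intensity per probe set and array, made with MAS5 per the submitters' processing notes; the array software's version was not given in the sources used here. Every array had a 2% trimmed mean of 100.04 to 100.05, so values were used as deposited. Without the 57 controls there were 31042 probe sets: 20826 with a single gene symbol, 436 with several and 9780 with none. The GRCr8 gene table gave current symbols by gene identifier for 20758 and by accession for 2, and 66 kept theirs. Probe sets with a mean signal over all arrays at or above the median of 19.67 were tested (15523). The package limma 3.58.1 (R 4.3.3; functions lmFit and eBayes, trend on) was fitted to log2(signal + 16) with 1 mean per group over all 12 arrays, with 8 residual and 5.96 prior degrees of freedom. Two-sided p-values had Benjamini-Hochberg adjustment and a 0.05 threshold, and the fit was tested on simulated data. List genes were read from the probe set with the highest mean signal. Named were all members, up to 3 called genes of each list and direction by smallest p, Acaa1a, Acaa1b, Cat, Ppara and Cpt1a where tested, and the 5 genes most like Ehhadh; others were named after their values were seen. Members and lists were chosen with earlier results of these data known. Alternatives were other offsets, filters, normalizations, variance priors, array weights, own 6 arrays, 1 probe set per gene, the actin ratio and leaving out each animal. Figures were drawn with matplotlib 3.10.9. Some listed genes were not analysed here.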

Additional observations from a re-analysis of the deposited data

Results flagged for a closer look

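In 6 member probe sets the change differed between the germ-free and the antibiotic comparison by limma's test of the difference. The differences in log2 change, germ-free less antibiotic, were -2.09 and -1.37 for the brighter and dimmer Pex11a probe sets, -2.02 for Crat, -1.95 for Ehhadh, -1.31 for Ech1 and -0.94 for Decr2. The comparisons differ in strain and experiment as well as in treatment, and these cannot be told apart. With the actin ratio as a covariate the Pex11a, Ech1 and Decr2 differences did not pass (adjusted p = 0.0603 for the brighter Pex11a probe set and higher for the others), and that of Decr2 did not pass in 14 of 23 alternatives. Groups of 3 are too small for a test of single outlying animals.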

How the results depend on the processing

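In the germ-free comparison no member changed direction in any alternative in which it was tested (24, but 22 for the dimmer Pex11a and 23 for the dimmer Scp2 probe set). Member calls numbered 5 with the actin covariate and 7 to 9 when 1 animal was left out (8 as reported). Calls over all probe sets numbered 1226 with 1 probe set per gene, which tests 9300, 855 with the actin covariate and 1006 to 2028 without 1 animal (1901 as reported), lowest without germ-free animal 3. Median centring took the median of all probe sets to -0.05, against 0.05 as deposited, and the share of calls that were higher to 31.7%, against 56.0%. In the antibiotic comparison member calls numbered 0 throughout, and calls over all probe sets 3 as reported, 1 with the 75th percentile filter or own 6 arrays, 25 with array weights and 1 to 9 without 1 animal (9 without untreated animal 1, 6 without germ-free animal 1, 5 without antibiotic animal 15, 1 without untreated animal 2). For the difference, member calls numbered 2 with the actin covariate and 3 to 7 without 1 animal (6 as reported), and calls over all probe sets 496 with no filter, 1229 with array weights, 300 with the actin covariate and 435 to 850 without 1 animal (781 as reported; 438 without germ-free animal 3, 435 without untreated animal 2, 512 without untreated animal 1).

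Signs changed only for values that did not pass, and the cause was not tested. Antibiotic values turned with quantile normalization for Hsd17b4 (-0.0073), Scp2 (-0.0863) and Decr2 (-0.0088), for Decr2 also with median centring (-0.0030), the actin covariate (-0.0300) and without antibiotic animal 13 (-0.0773) or 15 (-0.0473). Without antibiotic animal 13 they turned for both Pex11a probe sets (-0.0049 and -0.0388), without untreated animal 3 for the brighter one (-0.0888), and without antibiotic animal 14 for Eci2 (0.0582). The sign of the difference turned for Abcd3 with the actin covariate (0.0383) and without germ-free animal 3 (0.0001). They turned for the brighter Scp2 probe set with quantile normalization (0.0974) and without germ-free animal 1 (0.0686), untreated animal 2 (0.0297) or antibiotic animal 13 (0.0092) or 15 (0.0137). Leaving out 1 animal, these values ran as follows: antibiotic Decr2 -0.0773 to 0.2460, Eci2 -0.1179 to 0.0582, Hsd17b4 0.0864 to 0.2437, Pex11a brighter -0.0888 to 0.3473, Pex11a dimmer -0.0388 to 0.2750, Scp2 0.1901 to 0.3109, and differences Abcd3 -0.3441 to 0.0001, Scp2 -0.1059 to 0.0686. No paired analysis was possible because the groups compared share no animal numbers.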

Other observations

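On the list of PPAR-alpha targets, Cyp4a8 moved against the members. This fatty acid hydroxylase gene had 83.4, 29.2 and 43.3 in germ-free livers, against 14.4, 13.9 and 11.8 in conventional livers, and 10.1, 25.2 and 55.2 in antibiotic-treated livers, against 150.5, 267 and 66.1 in untreated livers. Neither comparison passed (log2 1.13 ± 0.41, adjusted p = 0.0900, and -1.89 ± 0.41, adjusted p = 0.168 by limma), but the difference between them did (3.02 ± 0.58, adjusted p = 0.00986), and its other probe set had a difference of 1.54 (adjusted p = 0.0439). The groups did not overlap in either comparison. Cyp4a1, a far brighter gene of the same list, went with the members and fell in germ-free livers (-0.87 ± 0.22, adjusted p = 0.0208 by limma). In antibiotic-treated livers its value was 0.27 ± 0.22 (adjusted p = 0.741). Acot1, a thioesterase gene, had 30.3, 0.6 and 5.5 in germ-free livers, against 668, 181 and 117 in conventional livers, and 239, 56.8 and 116 in antibiotic-treated livers, against 47.9, 30.6 and 48.2 in untreated livers. Its difference was -4.59 ± 0.77 (adjusted p = 0.00424), and antibiotic animal 14 was again the lowest of its group. Cyp4a8 and Acot1 have close relatives in sequence that their probe sets may not separate, and signals under the offset of 16 in some animals, where folds are understated.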
